A study of Homo sapiens with 4 samples.

Results

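PAX1 to PAX9 are the 9 genes of the paired-box transcription factor family, and they were examined here in maps of accessible chromatin as 9 of 20033 protein-coding genes of GENCODE release 44 on hg38. The members were chosen by name. Every accessible interval in each gene body and in the 50 kb on either side of it was taken, which gave 136 sites of the 172302 sites found in the genome. Chromatin was profiled by ATAC-seq, where an adapter-loaded Tn5 transposase inserts preferentially into open DNA, in 4 libraries. C4-2B is a human prostate adenocarcinoma line that responds to androgen. C4-2BER was labelled as enzalutamide-resistant, and the study describes it as neuroendocrine-like. It was derived from C4-2B by keeping it in enzalutamide, an inhibitor of the androgen receptor. Both lines therefore have a single origin, and every difference below is between these lines only. Each line had 2 replicates, but the authors merged them before peaks were called. The data therefore hold 1 peak list per line, with no replicate check, no SD and no test between the lines.

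PAX proteins bind DNA through the paired domain, and they fall into subfamilies by what else they carry. PAX2, PAX5 and PAX8 keep part of a homeodomain and act in kidney, midbrain, thyroid and, for PAX5, in B cells, whose identity it maintains. PAX3 and PAX7 act in neural crest and muscle precursors, PAX4 and PAX6 in pancreas, eye and brain, and PAX1 and PAX9 in the skeleton, thymus and teeth. The study was centred on PAX5 in neuroendocrine-like prostate cancer, and the question for these data was how chromatin at PAX5 compared with chromatin at its relatives in both lines.

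A site here is a group of overlapping intervals of both lists. It was open in both lines when both lists held an interval, and otherwise open in C4-2B only or in C4-2BER only. For each site the reads over the summit were recovered from the deposited fold and −log10 p. C4-2B was sequenced 1.20 times as deeply, and ratios of C4-2BER to C4-2B reads were scaled to equal depth and carry exact binomial 95% intervals that cover counting error only. Peaks were ranked by −log10 p as a percentile of the list they belong to. The C4-2B list held 149676 peaks with a median of 29 reads at a summit, and the C4-2BER list held 118728 with a median of 23. No summit under 8 reads was listed for C4-2B and none under 7 for C4-2BER, so a site open in 1 line only may hold reads below the calling limit in the other. Of marker genes for the cell types that the study describes, all 6 prostate luminal and all 5 neuroendocrine genes had a peak within 2 kb of a start site in both lines. The canonical start site itself was covered in both lines at all 6 luminal and at 3 neuroendocrine genes. It was covered in C4-2BER only at CHGA and SYT1, against 5.47% of all genes. At CHGA the C4-2B interval began at 92923306, just inside the gene, and the promoter held 74 C4-2B reads and 62 C4-2BER reads. The call of CHGA thus came from where the interval began, and of the 2 genes only SYT1 also rose in reads. Summit reads at the promoter went from 171 in C4-2B to 45 in C4-2BER at KLK3 and from 22 to 87 at SYT1, both named after their values were seen.

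The sequences at the turning points of the family are shown first. The PAX5 promoter site was open in C4-2B only, and the strongest PAX5 site was open in both lines. The PAX1 sequence is from the highest-ranked site open in C4-2B only among all members. The PAX3 promoter site, open in C4-2BER only, was added after its values were seen. All are from hg38, written 5′ to 3′ on the strand of the gene, with exons left out. The stretches are chr9:37034327-37034626 (minus), chr9:37027665-37027964 (minus), chr20:21695206-21695505 (plus) and chr2:222298999-222299298 (minus). Capitals mark TATAAA in the PAX5 promoter, CCAAT on either strand in the strongest PAX5 site and in PAX3, and in PAX1 the forkhead letters TGTTTAC (printed as their reverse complement) and the E-box CAGCTG.
PAX5 promoter: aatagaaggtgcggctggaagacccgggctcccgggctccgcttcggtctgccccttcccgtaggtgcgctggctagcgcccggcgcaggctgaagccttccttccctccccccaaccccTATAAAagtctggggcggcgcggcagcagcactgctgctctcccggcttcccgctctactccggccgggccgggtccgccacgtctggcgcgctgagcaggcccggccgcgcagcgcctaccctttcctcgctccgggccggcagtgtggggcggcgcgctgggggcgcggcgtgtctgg
PAX5 strongest site: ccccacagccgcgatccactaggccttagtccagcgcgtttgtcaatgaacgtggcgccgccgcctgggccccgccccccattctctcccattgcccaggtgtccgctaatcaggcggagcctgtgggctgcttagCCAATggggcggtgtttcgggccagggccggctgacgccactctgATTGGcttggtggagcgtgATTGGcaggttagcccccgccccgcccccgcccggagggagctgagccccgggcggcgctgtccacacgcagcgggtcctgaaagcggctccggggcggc
PAX1 site: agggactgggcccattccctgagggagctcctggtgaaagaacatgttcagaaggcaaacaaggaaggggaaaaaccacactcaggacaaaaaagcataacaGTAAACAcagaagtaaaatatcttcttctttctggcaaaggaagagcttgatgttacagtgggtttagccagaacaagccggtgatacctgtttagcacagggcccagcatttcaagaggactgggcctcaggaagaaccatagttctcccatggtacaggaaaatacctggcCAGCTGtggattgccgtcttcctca
PAX3 promoter: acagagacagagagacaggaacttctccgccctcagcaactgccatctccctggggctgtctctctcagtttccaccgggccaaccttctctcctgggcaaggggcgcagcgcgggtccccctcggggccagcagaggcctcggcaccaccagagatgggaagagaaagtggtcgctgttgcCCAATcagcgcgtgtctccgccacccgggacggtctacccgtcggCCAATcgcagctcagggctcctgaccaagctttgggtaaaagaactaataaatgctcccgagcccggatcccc

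Across the family, 74 of the 136 sites (54.4%) were open in both lines, close to 52.9% of all sites in the genome. Open in C4-2B only were 29 sites (21.3%, Wilson 95% interval 15.3 to 28.9), against 32.8% in the genome. Open in C4-2BER only were 33 sites (24.3%, interval 17.8 to 32.1), against 14.3% in the genome. The family thus held a larger share of C4-2BER-only sites and a smaller share of C4-2B-only sites than the genome did, although neighbouring sites of a gene are not independent and the intervals do not cover that. The share of C4-2BER-only sites was also above that of the genome at a minimum −log10 q of 5 (21.1% against 11.4%), at a minimum of 10 (20.7% against 8.64%) and with the top 50000 peaks of each list (35.7% against 22.2%). The order of the line-only counts was less firm. C4-2B-only sites were the more numerous at a minimum −log10 q of 5 (24 against 23) or 10 (19 against 17), and also without PAX8 (25 against 23 of 111 sites).

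**Figure D1:**
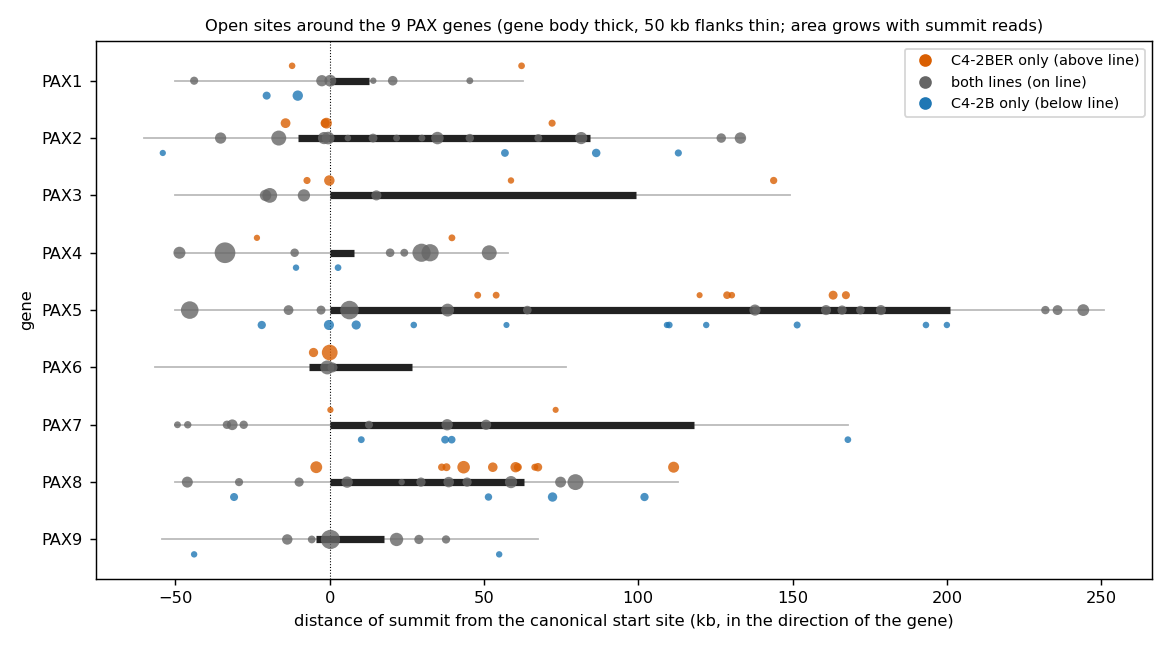
Sites around each PAX gene by distance of the summit from the canonical start site in kb, in the direction of the gene, with the gene body as a thick line and the 50 kb flanks thin. Points stand for sites open in both lines (on the line), in C4-2BER only (above) or in C4-2B only (below), with areas that grow with summit reads; the PAX8 row holds 10 points above its line and the PAX9 row none.

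The members differed in how many sites they held. PAX5, with the longest window, had 33, PAX8 had 25, PAX2 22, PAX7 14, PAX4 12, PAX1 10, PAX3 8, PAX9 8 and PAX6 4. Per 100 kb, PAX8 was the densest with 15.3 sites and stood at percentile 89.7 of all protein-coding genes. PAX5 held 11.0 per 100 kb (percentile 67.0), and PAX3 (4.02, percentile 13.0) and PAX6 (3.00, percentile 8.04) were the sparsest. Of the 136 sites, 110 had a start site of the PAX gene itself as the nearest protein-coding start site. PAX4 had the lowest share, with 3 of 12, because its flanks hold the promoters of GCC1, ARF5, FSCN3 and SND1. PAX8 had 18 of 25, with its other sites nearest to PSD4, PAX2 had 18 of 22 and PAX3 6 of 8.

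PAX5 was then set against its relatives. Of its 33 sites, 15 were open in both lines, 11 in C4-2B only (33.3%, interval 19.8 to 50.4) and 7 in C4-2BER only (21.2%, interval 10.7 to 37.8). Of the 103 sites of the other 8 genes, 59 were open in both lines, 18 in C4-2B only (17.5%, interval 11.3 to 25.9) and 26 in C4-2BER only (25.2%, interval 17.8 to 34.4). The C4-2B-only share of PAX5 lay close to that of the genome and the share of its relatives below it, with intervals that overlap, and the difference between PAX5 and its relatives was not tested. PAX5 and its closest relatives PAX2 and PAX8 held 40 shared, 19 C4-2B-only and 21 C4-2BER-only sites together. The other pairs held 12, 4 and 6 (PAX3 and PAX7), 10, 2 and 4 (PAX4 and PAX6) and 12, 4 and 2 (PAX1 and PAX9). PAX3 and PAX6 had no C4-2B-only site, and PAX9 had no C4-2BER-only site.

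**Figure D2:**
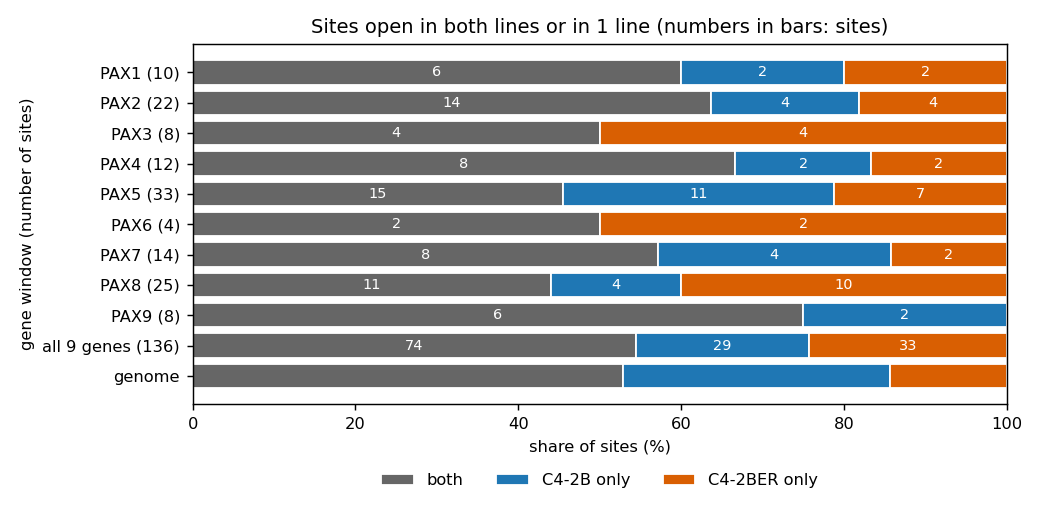
Share of sites (%) open in both lines, in C4-2B only or in C4-2BER only for each gene window, for all 9 genes and for all sites of the genome, with the number of sites in each bar. C4-2BER-only sites make up 24.3% for the 9 genes and 14.3% for the genome.

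Sites were then placed by their summit. The 21 sites within 2 kb of a start site of the PAX gene held 9 shared, 3 C4-2B-only (14.3%) and 9 C4-2BER-only sites (42.9%), against 14.5% and 12.0% of sites at any protein-coding start site in the genome. With the start sites of other genes in the windows counted too, as in the genome, the shares of 27 sites were 11.1% (3, C4-2B only) and 33.3% (9, C4-2BER only). The 9 lay at PAX2, PAX3, PAX6, PAX7 and PAX8, and several were neighbours at 1 gene. Some were close to a C4-2B peak, at 62 and 297 bp (PAX2), 261 bp (PAX6) and 139 bp (PAX8), and the others were 780 bp or more away. With intervals up to 500 bp apart joined, all C4-2BER-only sites of a gene went from 4 to 2 at PAX2. They went from 2 to 1 at PAX6 and from 10 to 9 at PAX8. The 48 intronic sites held 24 shared, 12 C4-2B-only and 12 C4-2BER-only sites (25% each), against 37.1% and 13.9% of intronic sites in the genome. The 34 sites in upstream flanks held 22, 7 and 5, the 30 in downstream flanks 18, 6 and 6, and 3 sites lay in exons. Line-only sites held more reads at promoters than in introns. The medians were 34 and 15 reads for C4-2BER-only sites and 33 and 13.5 for C4-2B-only sites. These reads are not set against the local background. By rank, the 9 C4-2BER-only promoter sites stood at percentiles 6.39, 6.82, 11.0, 19.1, 23.6, 54.8, 76.5, 87.3 and 89.3. The intronic sites of that class ran from 4.82 to 70.3. The 3 C4-2B-only promoter sites held 13, 33 and 42 reads.

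By gene, 6 members (PAX1, PAX2, PAX5, PAX6, PAX8 and PAX9) had a peak within 2 kb of any annotated start site in both lines, against 77.5% of all protein-coding genes, 1 (PAX4) in C4-2B only, against 2.82%, and 2 (PAX3 and PAX7) in C4-2BER only, against 3.37%. The canonical start site itself, which is the one annotated for the reference transcript, gave another picture. It was covered by a peak in C4-2B only at 1 gene (PAX5), against 1.31% of all genes, and in C4-2BER only at 3 genes (PAX1, PAX3 and PAX6), against 5.47%. It was covered in both lines at 2 genes (PAX2 and PAX9), against 64.3%, and in neither at 3 (PAX4, PAX7 and PAX8), against 29.0%. This second definition was added after the values were seen. PAX5 was thus the one member with its canonical start site covered in C4-2B only, and its promoter peak in both lines under the wider rule came from the site inside the gene described below.

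At PAX5 (ENSG00000196092, chr9:36833269-37034268, minus strand), 7 start sites are annotated. The canonical promoter site, chr9:37034235-37034874, held 42 reads in C4-2B and stood at percentile 64.2 of that list. Its summit lay 209 bp upstream of the start site, and the TATAAA of the printed stretch began 238 bp upstream. The nearest C4-2BER peak lay 1892 bp away. That neighbour, chr9:37036766-37037406, was open in both lines with 25 C4-2B reads and 31 C4-2BER reads, at percentiles 36.3 and 58.0 and a ratio of 1.48 (0.848 to 2.62). A further promoter site at a start site inside the gene, chr9:37025543-37025762, held 33 reads in C4-2B, at percentile 20.1, and had no C4-2BER peak within 1631 bp. Both PAX5 promoter sites were therefore listed in C4-2B only.

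The strongest PAX5 site lay between them, 6.45 kb inside the gene in an intron, at chr9:37027393-37028115. It held 166 C4-2B reads and 158 C4-2BER reads, at percentiles 99.2 and 99.1, with a ratio of 1.14 (0.910 to 1.42). The strongest flanking site, 45.3 kb upstream at chr9:37079248-37080535 and nearest to the start of ZCCHC7, held 148 and 138 reads (ratio 1.12, 0.878 to 1.42) at percentiles 98.0 and 97.9. It lay just inside the window, and the first site beyond the upstream edge, 58.7 kb away, was also shared, with 64 and 31 reads. Another strong site, in an intron 38.2 kb inside the gene at chr9:36995697-36996510, held 75 and 60 reads (ratio 0.957, 0.670 to 1.36). At these 3 sites each interval of the ratio included 1, so the lines were within counting error of each other.

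Between 161 and 167 kb inside PAX5 lay a group of 4 intronic sites with more signal in C4-2BER. The shared site at chr9:36868126-36868409 rose from 16 reads in C4-2B to 34 in C4-2BER, a ratio of 2.54 (1.37 to 4.93). Its neighbour at chr9:36873267-36873783 held 37 and 42 reads, a ratio of 1.36 (0.852 to 2.17). Between and beside them lay C4-2BER-only sites of 31 reads (chr9:36871023-36871295) and 23 reads (chr9:36866897-36867112), the highest-read sites of that class at PAX5. The 10 kb around the summit at chr9:36868126-36868409 held 130 C4-2B reads and 250 C4-2BER reads, 2.30 times as many at equal depth. The 10 kb around the neighbour, which overlap these, held 139 and 216 reads, 1.86 times as many in C4-2BER at equal depth.

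Farther into the gene the order was the opposite. The site 179 kb inside, chr9:36855494-36855835, held 42 C4-2B reads and 15 C4-2BER reads, a ratio of 0.427 (0.220 to 0.787), and the next, chr9:36861992-36862467, held 28 and 12 (0.513, 0.238 to 1.04). In the flank beyond the 3′ end, 3 shared sites held 61 and 27 reads (0.530, 0.324 to 0.846), 40 and 38 (1.14, 0.710 to 1.82) and 26 and 12 (0.552, 0.254 to 1.13). The site 13.3 kb upstream of the start, chr9:37047047-37047757, held 39 and 18 reads (0.552, 0.297 to 0.989). The remaining 3 shared sites, all intronic, had ratios of 0.855 to 0.931. Over the 15 shared sites of PAX5 the median ratio was 0.931, with 9 below 1, against 0.900 over all shared sites of the genome.

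The other line-only sites of PAX5 were weak. Of its 18 line-only sites, 16 stood below percentile 50 of their list, and their reads ran from 9 to 42 in C4-2B and from 9 to 31 in C4-2BER. The exceptions were the canonical promoter and the C4-2B-only site 22.0 kb upstream at chr9:37055967-37056411, with 25 reads at percentile 51.5. The 8 weakest C4-2B-only sites held 9 to 15 reads, of which 7 were intronic and 1 lay in an exon at the 3′ end of the gene. The other 5 C4-2BER-only sites, all intronic, held 9 to 20 reads. At a minimum −log10 q of 5, the C4-2B-only count of PAX5 fell from 11 to 6 while its C4-2BER-only count fell from 7 to 5.

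**Figure D3:**
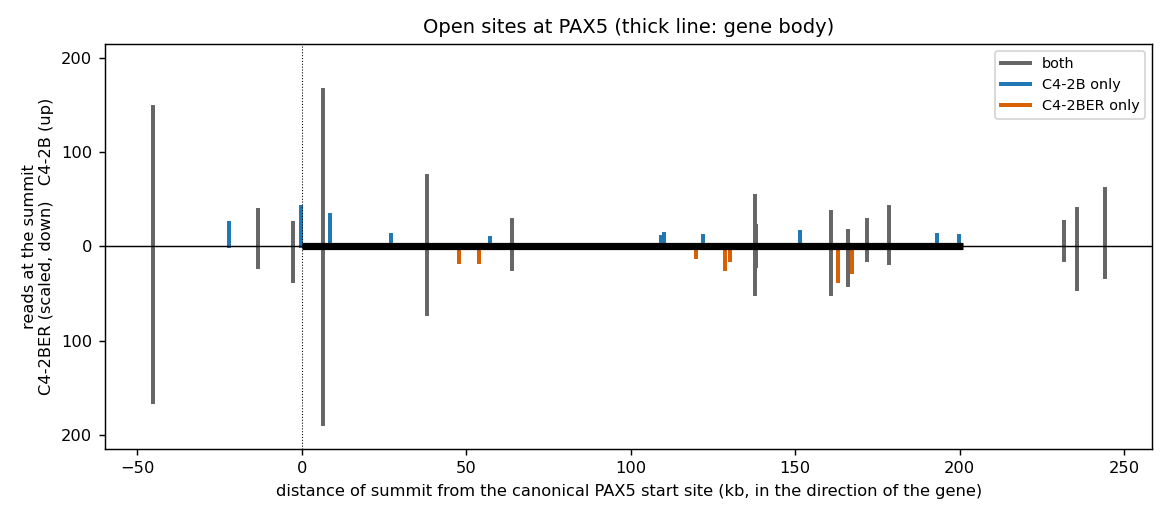
Reads at the summit of each of the 33 PAX5 sites by distance from the canonical start site in kb, with C4-2B reads upward and C4-2BER reads, scaled to the depth of C4-2B, downward. Grey bars are shared sites, blue C4-2B only and orange C4-2BER only; the tallest pair, 6.45 kb inside the gene, holds 166 and 158 reads before scaling.

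PAX2 and PAX8, the closest relatives of PAX5, had C4-2BER-only sites at and near their start sites. At PAX2 (ENSG00000075891, chr10:100735396-100829944, plus strand), which is needed for kidney development, 4 sites lay within 2 kb upstream of the canonical start site. The nearest, chr10:100744958-100745993, held 50 C4-2B reads and 72 C4-2BER reads, at percentiles 66.6 and 77.4, with a ratio of 1.72 (1.18 to 2.52). The farthest, chr10:100743616-100743968, held 36 and 66 reads, a ratio of 2.19 (1.44 to 3.39). Between them were 2 C4-2BER-only sites with 50 reads (chr10:100744435-100744715) and 32 reads (chr10:100744030-100744322). The 10 kb around the nearest held 305 C4-2B reads and 625 C4-2BER reads, 2.45 times as many at equal depth. The promoter of PAX2 was open in both lines and had more reads in C4-2BER. Its fold enrichment over the local background was lower there, 5.41 in C4-2BER and 7.18 in C4-2B at the nearest site. The C4-2BER-only sites of 50 and 32 reads had folds of 3.66 and 2.30, at percentiles 54.8 and 11.0.

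Outside the promoter PAX2 had both directions. Its strongest site, 16.5 kb upstream at chr10:100728781-100729829, held 105 C4-2B reads and 83 C4-2BER reads (ratio 0.946, 0.701 to 1.27), at percentiles 92.9 and 87.3. An intronic site, chr10:100780212-100780880, which held forkhead and CTCF letters, fell from 70 to 28 reads (0.479, 0.297 to 0.752). The highest-ranked C4-2B-only site of the gene, with 21 reads at percentile 43.0, lay in an intron at chr10:100802244-100802541 and held the letters of an androgen response element. Over 14 shared sites the median ratio was 1.44, the highest of the 9 genes.

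At PAX8 (ENSG00000125618, chr2:113215997-113278921, minus strand), which directs thyroid development and is also made in kidney and Müllerian tissue, the canonical start site had no peak within 2 kb in either line. The highest-ranked C4-2BER-only site lay 4.31 kb upstream of it, chr2:113282897-113283420, with 62 reads at percentile 88.2 and no C4-2B peak within 4984 bp. It held PBX-HOX, CCAAT and CTCF letters. The most reads of that class, 71 at percentile 87.3, were at an internal start site, chr2:113235323-113235840, with the nearest C4-2B peak 780 bp away. From 36.3 to 67.5 kb downstream of the canonical start site, in the gene and just beyond it, lay 8 of its 10 C4-2BER-only sites. These 8 ran from percentile 6.39 to 87.3. At a minimum −log10 q of 5 the C4-2BER-only count of PAX8 fell from 10 to 6. In the same stretch the exonic site chr2:113219759-113220301 rose from 30 to 66 reads, a ratio of 2.63 (1.69 to 4.20), the highest of the 74 shared sites.

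The wider signal moved with those sites. The 10 kb around the PAX8 site at chr2:113240139-113240710, also at an internal start site, held 171 C4-2B reads and 408 C4-2BER reads, 2.85 times as many at equal depth, although its summit held fewer in C4-2BER (47 and 23 reads, ratio 0.586, 0.339 to 0.984). Its strongest site in both lists, in the downstream flank at chr2:113198634-113199568 and nearest to PSD4, held 119 and 98 reads (0.985, 0.746 to 1.30). The highest-ranked C4-2B-only site, chr2:113206381-113206893, held 35 reads at percentile 53.1 and forkhead letters. With 10 C4-2BER-only sites PAX8 stood at percentile 99.4 of all genes by that count, which grows with the length of the window, and PAX5 stood at 97.8 with its 7 and about as high, at 96.2, by its 11 C4-2B-only sites.

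PAX3 and PAX7, which specify neural crest and muscle precursors, had promoter peaks in C4-2BER only. At PAX3 (ENSG00000135903, chr2:222199887-222298998, minus strand) the promoter site chr2:222298513-222299506 covered the canonical start site, held 46 reads in C4-2BER at percentile 76.5, and had no C4-2B peak within 7605 bp. Its other 3 C4-2BER-only sites held 11 to 17 reads. The 4 shared sites had ratios of 0.570 to 1.25. The strongest, chr2:222318035-222318756, lay 19.4 kb upstream and nearest to a start site of ENSG00000288658, with 98 and 102 reads. The PAX3 promoter was the strongest of the member promoters listed in 1 line only under the wider rule.

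At PAX7 (ENSG00000009709, chr1:18630846-18748866, plus strand) the promoter site was weak, with 10 reads in C4-2BER at percentile 6.82 at chr1:18630979-18631346, and it was lost from the list at a minimum −log10 q of 5. The largest change of PAX7 was in an intron. The site chr1:18668701-18669318 fell from 56 reads to 13, a ratio of 0.278 (0.139 to 0.514), and was flanked by C4-2B-only sites of 21 and 20 reads at 486 and 1143 bp from the nearest C4-2BER peak. It held AP-1 letters. The site with the highest rank in both lists, the intronic chr1:18681306-18681903, held 44 and 36 reads (0.979, 0.612 to 1.56).

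PAX6 and PAX4 are known from the pancreas, and PAX6 also from eye and brain. At PAX6 (ENSG00000007372, chr11:31784779-31817961, minus strand) 45 start sites are annotated, against 3 to 7 at the other members. All 4 sites of PAX6 lay within 2 kb of such a start site and so were classed as promoter sites. The canonical start site was covered by the C4-2BER-only site chr11:31810984-31811596, with 117 reads at percentile 89.3, the most reads of the 62 line-only sites of the family. C4-2B peaks flanked it, the nearer 261 bp away. On one side, chr11:31811760-31812415 held 86 C4-2B reads and 90 C4-2BER reads (1.25, 0.921 to 1.70), and on the other, chr11:31810116-31810690 held 41 and 41 (1.20, 0.757 to 1.89). The start of PAX6 was thus accessible in both lines, with an additional summit in C4-2BER.

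The region around the PAX6 start carried more reads in C4-2BER. The 10 kb around the first of these flanking sites held 429 C4-2B reads and 960 C4-2BER reads, 2.68 times as many at equal depth. The rank of a peak is set against this local background, and the other flanking site, with 41 reads in each line, stood at percentile 47.0 in C4-2B and 17.9 in C4-2BER. A second C4-2BER-only site, chr11:31816414-31816650, held 34 reads at percentile 23.6, with PBX-HOX and CCAAT letters, 144 bp from a start site of ENSG00000285283. No other interval of either list lay in the rest of the PAX6 window.

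PAX4 (ENSG00000106331, chr7:127610292-127618142, minus strand) had a single promoter site, chr7:127615287-127615500, in C4-2B only, with 13 reads at percentile 11.7, and it was lost at a minimum −log10 q of 5. The strong sites of its window sat at other genes, led by the SND1 promoter at chr7:127651156-127652534 with 209 and 205 reads (1.17, 0.963 to 1.43). Its highest-ranked C4-2BER-only site, chr7:127578362-127578719, held 14 reads at percentile 28.5. The lowest ratio of the family was 51.7 kb beyond the PAX4 start at chr7:127565880-127566796, with GCC1 as the nearest gene. It held 104 C4-2B reads and 23 C4-2BER reads (0.265, 0.161 to 0.419), and the 10 kb around it held 367 and 104. That loss lay 19176 bp from the GCC1 start site and was counted for PAX4 by distance only.

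PAX1 and PAX9 pattern the vertebral column and, for PAX9, the teeth. At PAX9 (ENSG00000198807, chr14:36657568-36679362, plus strand) the canonical promoter was the strongest of any member, with 179 C4-2B reads and 141 C4-2BER reads at chr14:36661411-36663100, percentiles 98.0 and 96.6, and a ratio of 0.942 (0.750 to 1.18). Its flanks moved both ways. The upstream site chr14:36647591-36648627 rose from 24 to 46 reads (2.29, 1.37 to 3.93), and the downstream site chr14:36682902-36683796 fell from 81 to 33 (0.487, 0.315 to 0.739). Its C4-2B-only sites were weak, with 11 reads each.

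At PAX1 (ENSG00000125813, chr20:21705659-21718481, plus strand) the promoter site chr20:21705547-21706324 held 62 C4-2B reads and 35 C4-2BER reads, at percentiles 76.2 and 67.8, with a ratio of 0.675 (0.433 to 1.04). Only the C4-2BER interval reached over the canonical start site, and the C4-2B interval began at 21705691, just inside the gene, so the call of PAX1 as covered in C4-2BER only came from the width of the interval. The highest-ranked C4-2B-only site of the family, chr20:21695075-21695557, lay 10.3 kb upstream with 45 reads at percentile 74.5, and its forkhead letters are in the printed stretch. The downstream site chr20:21725967-21726295 fell from 37 to 14 reads (0.453, 0.226 to 0.857). The C4-2BER-only sites of PAX1 held 12 and 13 reads.

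Over all shared sites of the family, 4 of 74 (5.41%) held at least 2-fold more reads in C4-2BER, against 2.65% of shared sites in the genome. At least 2-fold fewer were held by 6 (8.11%), against 13.7%. The order of these counts depended on the scaling, with 6 up and 3 down when scaled by the median ratio of all shared sites and 2 up and 14 down on unscaled reads. The 4 were at PAX2, PAX5, PAX8 and PAX9, and the 6 at PAX1, PAX2, PAX4, PAX5, PAX7 and PAX9. The 95% interval lay above 1 at 9 sites, against 5.33% of shared sites in the genome, and below 1 at 12, against 21.4%, and it covers counting error only. As shares of the 74 sites these are 12.2% and 16.2%. The median ratio was 0.974 for the family, 0.931 for PAX5 and 0.985 for the other 8 genes.

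**Figure D4:**
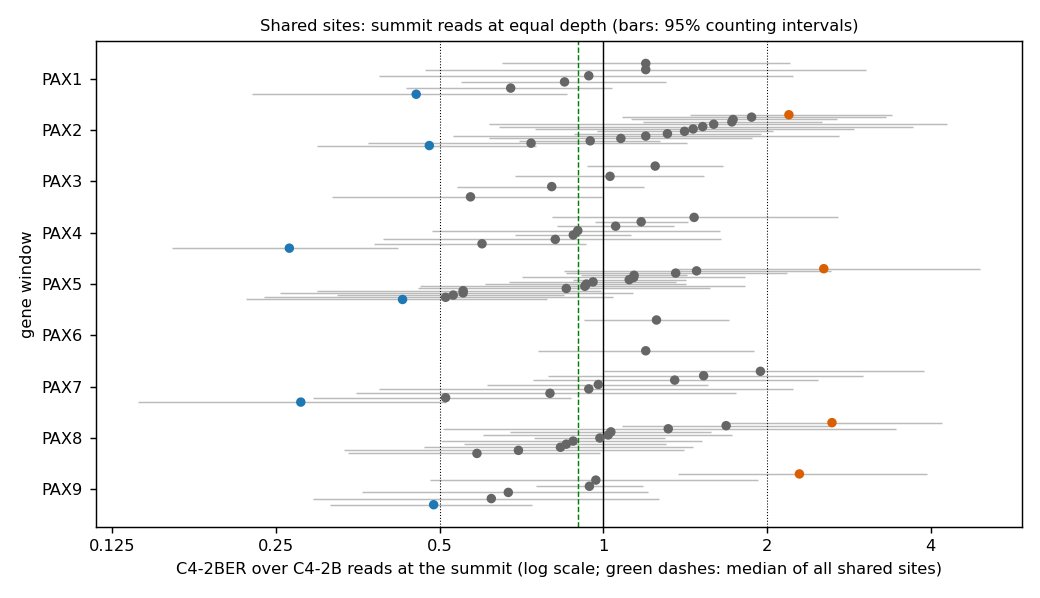
Ratio of C4-2BER to C4-2B summit reads at equal depth (log scale) for each of the 74 shared sites, by gene, with 95% counting intervals as bars, dotted lines at 2-fold and the genome median of 0.900 as green dashes. The 4 orange points lie at 2-fold or more and the 6 blue points at 2-fold fewer or below.

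The reads in 10 kb around a summit gave a wider measure. They could be compared at 53 of the 74 shared sites, where both lines were above the floor of the genome. At least 2-fold more in C4-2BER were found at 8 (15.1%), against 1.53% of such sites in the genome, and at least 2-fold fewer at 1 (1.89%), against 4.14%. The 8 were 3 at PAX2, 2 at PAX6, 2 at PAX8 and 1 at PAX5. Sites that lie close together share much of their 10 kb. This holds for the pair at the PAX6 start, a pair at the PAX2 start and, in part, the pair inside PAX8, so the 8 are fewer separate regions. The median was 1.12 for the family and 0.983 for the genome.

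**Figure D5:**
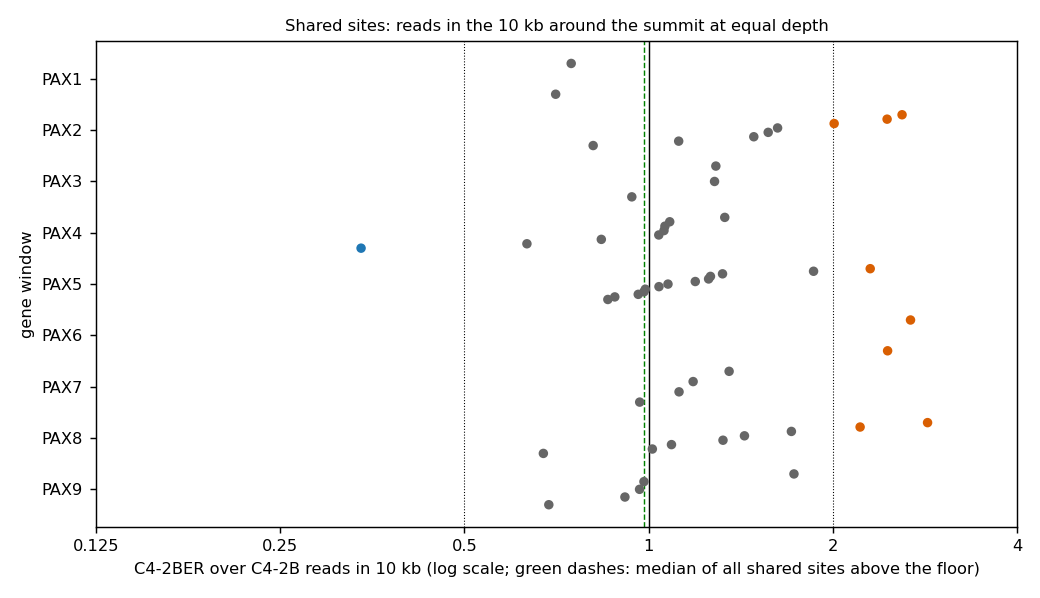
Ratio of C4-2BER to C4-2B reads in the 10 kb around each shared summit at equal depth (log scale), by gene, for the 53 sites above the floor in both lines, with dotted lines at 2-fold. Both PAX6 points lie above 2.4, and the PAX4 point at 0.339 is the lowest.

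Sequence features were described by letters within 100 bp of the summit on both strands. The forkhead letters TGTTTAC were in 7 of the 29 C4-2B-only sites (24.1%), 2 of them at PAX5, against 12.2% of all such sites, and in 2 of the 33 C4-2BER-only sites (6.06%), against 6.12%. The PBX-HOX letters TGATTNAT were in 3 of the C4-2BER-only sites (9.09%), 2 at PAX8 and 1 at PAX6, against 3.31%, and in none of the C4-2B-only sites, against 2.84%. CTCF letters (CCANNAG, any 2 bases, GGC) were in 7 shared sites (9.46%, against 8.23%), 3 C4-2BER-only sites (9.09%, against 4.36%) and none of the C4-2B-only sites (against 1.84%). AP-1 letters (TGANTCA) were in 5 C4-2BER-only sites (15.2%, against 9.01%), 2 of them at PAX5. The core of the paired-domain site, GCGTGAC, was in 2 of the 136 sites (1.47%), against 0.822% of all sites, and both were at PAX5. These are the shared site 45.3 kb upstream and a C4-2B-only site of 13 reads. With counts this low each share is a description, and a match is not a bound site.

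CCAAT, added with TATAAA after the values were seen, was in 25 of the 136 sites (18.4%), against 25.7% of all sites, and TATAAA in 10 (7.35%), against 11.3%. The sites of the family were richer in G and C than all sites, with medians of 57.7% against 50.2% for shared, 50.2% against 45.8% for C4-2B-only and 56.2% against 49.3% for C4-2BER-only sites.

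RefSeq promoters (GRCh38.p14, 250 bases before to 50 after the start) matched 8 of the 9 genes, and for each gene the promoter nearest to the canonical start site was compared. The PAX5 promoter had an observed to expected CpG ratio of 0.949, at percentile 86.3 of 35116 promoters, with 30 CpGs. PAX7 had the highest ratio, 1.07 at percentile 96.2, and its 300 bases overlapped no peak of either list. PAX4 had the lowest, 0.079 at percentile 7.03, and another RefSeq start site of PAX4 had no CpG at all. By these 300 bases, a promoter with a high CpG ratio was open in C4-2B only at PAX5 and in neither line at PAX7. The weak C4-2BER-only promoter peak of PAX7 lay just outside the 300 bases. By GC content the PAX7 stretch stood at percentile 39.9.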

How the data were processed

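ATAC-seq was carried out in 2 replicates each of C4-2B and C4-2BER. Per the study's methods, the authors trimmed the reads (cutadapt), aligned them to hg38 (Bowtie2), filtered them for mapping quality and duplicates, merged the replicates of a line and called peaks with macs2 (version not given in the sources used here). Deposited were 1 peak list per line with, per summit, the fold enrichment (a ratio to the local background), the −log10 p and −log10 q values given by the authors' caller, a whole-number score deposited by the authors that was not used, and another deposited column with the summit offset.

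An interval with several summits was counted once, by its highest −log10 p. Reads per summit and background were solved from fold and Poisson −log10 p. This was tested on simulated data and solved 100% of summits in either list, with errors of at most 0.000251 and 0.000259 in −log10 p. The lowest background, 2.24 and 1.87 reads per 200 bp, gave the depth ratio of 1.20; the other backgrounds were whole reads in 10000 bp. Sites were connected groups of intervals overlapping by at least 1 bp. Start sites were those of protein-coding transcripts. Described singly were, per member, the strongest site and promoter site of each list and the strongest site of each line-only class, every PAX5 site, and sites with at least 2-fold different reads; other sites were chosen after their values were seen. The members and lists were chosen with earlier results of these data known. Proteins were not analysed here. A few genes and 1 sequence that the rules cover are not reported here. Python 3.11.15, pandas 2.3.3 and scipy 1.17.1 were used. Alternatives were stricter lists, other overlap, flank and promoter rules, and other depth scalings.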

Additional observations from a re-analysis of the deposited data

How the results depend on the processing

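No paired analysis was possible because the authors merged the replicates before peaks were called, and for the same reason no replicate could be left out. Of 80 alternative counts for the comparisons, 55 were within 1.5 times the value given and 25 were not. Sites open in both lines, 74, became 46 at a minimum −log10 q of 10, 28 with the top 50000 peaks, 43 with 10 kb flanks and 118 with 100 kb. Sites open in C4-2B only, 29, became 19, 8, 18 and 44 under the same settings, and those open in C4-2BER only, 33, became 17 and 20 under the first pair. For PAX5, the 15 shared sites became 6 with the top 50000 peaks. Its 11 C4-2B-only sites became 6 and 5 at a minimum −log10 q of 5 and 10 and 2 with the top 50000 peaks, and its 7 C4-2BER-only sites became 3 with either of the last pair. These settings keep fewer or more peaks by construction. Genes with a promoter peak in both lines, 6, became 2 when the interval had to cover the canonical start site (added after seeing the data). Those in C4-2B only, 1, became 0 with any of the stricter lists and 2 with 1000 bp promoters, where PAX5 joined PAX4. Those in C4-2BER only, 2, became 1 (PAX3) with any of the stricter lists. Without depth scaling, 16 shared sites differed at least 2-fold in place of 10, with 2 up and 14 down, and scaling by the genome median gave 6 up and 3 down. The lists start at 8 and 7 reads a summit, so sites near these limits depend on depth.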
